A study of Mus musculus with 8 samples.

Results

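The 500 longest H3K4me3 peaks of resting D1 cells spanned 6034 to 16038 bp. A larger share of listed genes of dendritic, myeloid and leukocyte identity than of all protein-coding genes started in them. Of 77 such listed genes that had an H3K4me3 peak at a transcription start site (TSS), 26 lay in one of these 500 broad domains (33.8%), against 557 of the 10318 protein-coding genes with such a peak (5.40%). Housekeeping genes were also above that background, with 4 of 20 in a broad domain (20%). The gene lists were chosen with earlier results of these data known, so these shares are a description. The lengths were close to those in the peak lists of stimulated cells. A summit of NFATc2 binding lay in 204 broad domains (40.8%, all peaks of resting cells 13.5%, the 500 next longest 31.6%). Per Mb of peak, summits were as dense in the 500 next longest peaks (66.3) as in broad domains (65.8).

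D1 is a long-term dendritic cell line from the spleen of C57BL/6 mice. ChIP-seq for H3K4me3 covered 3 conditions, namely resting cells (non-treated, NT), cells given curdlan at 10 μg/ml for 2 h, and cells given curdlan and FK506 for 2 h. Curdlan is a β-glucan bound by the receptor dectin-1, and FK506 blocks calcineurin, the phosphatase that activates NFAT. NFATc2 was measured after 30 min of curdlan in D1 cells transduced with a lentivirus for V5-tagged NFATc2, sorted for low GFP and expanded, with an antibody to the tag. All 4 conditions were sequenced as a single ChIP library with a single input, without replicates, and no p-value is given between conditions. The header totals of ChIP tags were 16662316 in NT, 21289349 with curdlan, 19468498 with FK506 as well and 14377535 for NFATc2.

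Broad domains were the first 500 of 15799 NT peaks ordered by length, with ties resolved by more tags. The last peaks inside this limit, at Cd300lf, Anp32a and Tuba1c, were 6036, 6035 and 6034 bp long, and the first outside it, at Grn, Pafah1b1 and Mob1a, were 6033, 6032 and 6031 bp long. No gap in length separated the classes. The 500 next longest peaks (5075 to 6033 bp) are therefore given beside the broad domains where that shows whether a value changed at the limit.

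H3K4me3 is laid down by methyltransferases of the SET1 and MLL families, mostly around the start sites of genes that are transcribed or poised. At most promoters the mark is confined to the nucleosomes on either side of the start. Long stretches that run into the gene body have been described at genes that define the identity of a cell type and at some highly transcribed genes.

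Sequence around NFATc2 summits is shown for 8 broad domains that hold a summit and carry either a gene of the identity lists or the highest numbers of summits, because NFATc2 is the factor whose binding was mapped in these cells. Each is the 61 bases of the plus strand of mm9 centred on the summit with most NFATc2 tags in its domain. Windows that touched an annotated UTR (3 of the 18 that qualified) were passed over, and the 8 with most NFATc2 tags are shown. Capitals mark GGAAAA or its reverse complement TTTTCC, the core bound by NFAT proteins, which was searched on both strands.
Rhof: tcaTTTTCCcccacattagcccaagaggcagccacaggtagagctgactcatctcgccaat
Dpysl2/Gm5464: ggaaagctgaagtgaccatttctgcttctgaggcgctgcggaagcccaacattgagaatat
Ptpn22: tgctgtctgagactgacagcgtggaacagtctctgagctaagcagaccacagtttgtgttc
Rin3: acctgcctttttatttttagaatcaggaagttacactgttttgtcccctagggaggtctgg
P2ry13: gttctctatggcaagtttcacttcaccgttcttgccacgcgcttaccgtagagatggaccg
H2-Eb1: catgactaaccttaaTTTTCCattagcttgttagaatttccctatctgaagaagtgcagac
Lcp1: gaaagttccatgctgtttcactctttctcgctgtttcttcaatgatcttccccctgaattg
H2-Ab1: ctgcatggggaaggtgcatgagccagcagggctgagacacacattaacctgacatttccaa

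The Rhof window (chr5:123579494-123579554) and the H2-Eb1 window (chr17:34441806-34441866) held the motif. Over all 9438 NFATc2 summits, 2216 windows of 61 bases held it (23.5%). The windows at Ptpn22, Rin3, P2ry13 and Lcp1 were intronic, as was that at Rhof. The window at H2-Eb1 lay in an exon of the annotation, 829 bp from the nearest TSS, that of Gm20513. The windows at Dpysl2/Gm5464 (chr14:67491631-67491691) and H2-Ab1 (chr17:34399560-34399620) were intergenic.

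Several domains also contained a whole miRNA gene, and the mature forms are shown because their seeds place the genes in families. Of 115 annotated miRNA genes inside NT peaks, 12 lay inside 10 broad domains (10.4%), close to the 9.02% of NT peak length that broad domains cover. Sequences of 10 of them were found in RefSeq (GRCm38.p6), and 6 arms are shown with the seed, bases 2 to 8, in capitals.
mmu-miR-15b-5p: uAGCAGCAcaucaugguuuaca
mmu-miR-16-5p: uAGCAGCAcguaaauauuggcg
mmu-miR-132-3p: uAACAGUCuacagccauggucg
mmu-miR-212-3p: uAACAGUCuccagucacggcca
mmu-miR-146b-5p: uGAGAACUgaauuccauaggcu
mmu-miR-21a-5p: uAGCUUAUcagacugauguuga

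Mir15b and Mir16-2 (chr3:68813678-68813775 and chr3:68813824-68813918) shared a seed and a domain, that of Ift80 and Smc4. Mir132 and Mir212 (chr11:74987167-74987267 and chr11:74986890-74986980) shared another seed and lay in the domain of Hic1, a transcriptional repressor. Mir146b, known as a brake on NF-κB signalling, lay in the domain of Cuedc2 and Tmem180 (hairpin chr19:46417252-46417360). Mir21 lay in that of Vmp1 (hairpin chr11:86397569-86397660). No RNA was measured here, so these positions say nothing of miRNA levels.

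Broad domains covered 3.80 Mb, which was 9.02% of the length of all NT peaks, and they held 12.8% of the tags in peaks. Both follow from choosing by length. Their median tag density was 316 tags per kb (quartiles 256 to 378), against 306 in the 500 next longest peaks and 185 in all 15299 other NT peaks. The density thus differed little across the limit. Density varied widely among the broad domains, from 86.6 tags per kb at a domain near Prex1 to 860 tags per kb at Tnrc18. Density exceeded 600 tags per kb in 6 domains, at Tnrc18, Lfng, C130050O18Rik, Fbxo24/Lrch4, Niacr1 and Setd1b. Lfng encodes a glycosyltransferase that modifies Notch, Niacr1 the niacin receptor, and Setd1b a methyltransferase of H3K4 itself.

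**Figure D1:**
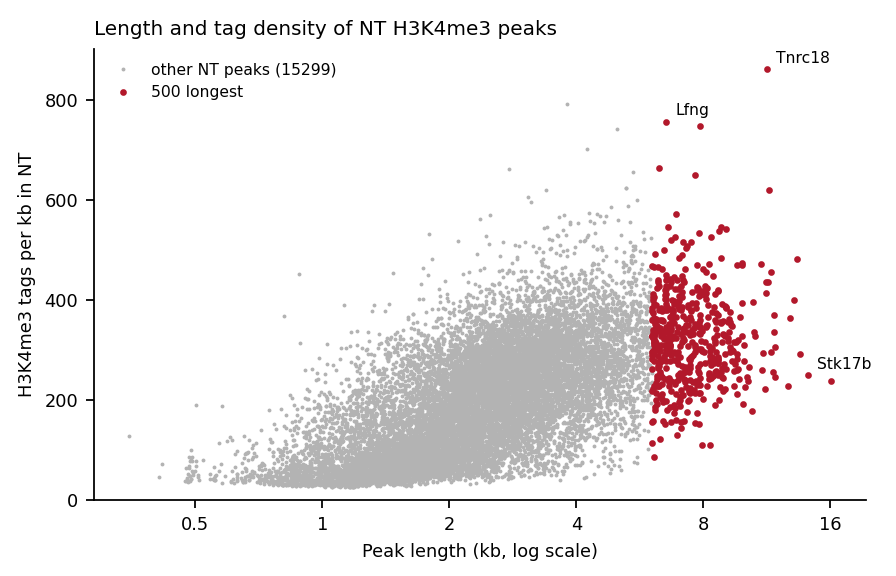
Length (kb, log scale) against H3K4me3 tags per kb for each of the 15799 NT peaks, with the 500 longest in red and the others in grey. Density is higher in longer peaks on the whole, and the red points run from 86.6 to 860 tags per kb without a step at the limit.

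The broad domains were not CpG-rich throughout. They held a median of 22.7 CpG per kb, against 26.6 in the next 500 and 29.2 in the other peaks. In the 1 kb centred on the summit the medians were 43, 49 and 47 CpG, and in the outermost 1 kb at both ends 12.5, 12.8 and 15.5 per kb, the last over the 4367 other peaks of at least 3 kb. The edges of broad domains were thus close to those of the next longest peaks, while the centre and the whole domain held fewer CpG. GC content was 48.4% in broad domains and 49.5% in the others. The NFAT core GGAAAA occurred 0.978 times per kb in broad domains and 0.946 times per kb in the others.

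A TSS lay in 469 of the 500 broad domains (93.8%, Wilson 95% interval 91.3 to 95.6), in 91.2% of the next 500 and in 62.5% of the other peaks. Exactly 1 protein-coding gene started in 372 domains, and 2 or more started in 88 (17.6%, 14.5 to 21.2), close to 18.8% in the next 500 and above 7.56% in the other peaks. In all, 668 genes had a TSS in a broad domain (1.79% of annotated genes and 5.72% of those with a TSS in an NT peak), of which 557 were protein-coding, 47 were lincRNA genes and 12 were miRNA genes. The intervals cover counting error only.

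The mark ran mainly into the gene, as it did in shorter peaks. Among 306 domains whose starts all belonged to 1 gene, the domain reached a median of 1490 bp upstream of the first start and 4946 bp downstream of the last, and 260 (85.0%) were longer on the downstream side, as were 86.3% of such peaks in the next 500 and 77.6% in all NT peaks. In the next 500 peaks these medians were 1281 and 3754 bp, and in the other peaks 908 and 1495 bp. The difference in reach between broad domains and other peaks was thus mostly downstream. Irf5, a transcription factor of myeloid cells, was an exception, with 4045 bp upstream and 1922 bp downstream. Spi1, which encodes PU.1 and is called Sfpi1 in the annotation, had 182 bp upstream and 6596 bp downstream.

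Genes of the longest domains had various functions. The longest, at chr13:63340249-63356286 (16038 bp), held no TSS and lay inside 2010111I01Rik. Next came Stk17b, a protein kinase gene (14.1 kb), Zbtb7b, which encodes a transcription factor of CD4 T cell development (13.5 kb), Malat1 with Gm20417, an abundant nuclear noncoding RNA (13.3 kb), and Mid1, a ubiquitin ligase gene (13.1 kb). The domain of Adprh and Cd80 (chr16:38451066-38463921, 12.9 kb) includes the start of a ligand of CD28 on dendritic cells. Runx3, a transcription factor of several leukocyte lineages, followed with 12.7 kb. The domain of Hcst, Nfkbid and Tyrobp (chr7:31197427-31209259, 11.8 kb) joins the starts of DAP10, a nuclear IκB protein and DAP12, both DAP proteins being adaptors of activating receptors. Nr4a2, a nuclear receptor gene, and Abi3/Gngt2 were both at 11.8 kb.

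A further 31 domains (6.20%) held no annotated TSS, and the longest domain was one of them. Of these, 16 overlapped a protein-coding gene body and 15 overlapped none. Their summits lay a median of 23182 bp from the nearest protein-coding TSS, and their median density was 280 tags per kb, against 317 in domains with a TSS. Some were close to a start that fell just outside, as for the domain inside Nfatc1, whose summit was 863 bp from its TSS.

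Genes of dendritic cell and leukocyte identity were read from 3 lists, which were chosen with earlier results of these data known. Of 30 genes for dendritic and myeloid transcription factors, 26 had an NT peak at a TSS and 8 were in broad domains, namely Spi1, Irf4, Id2, Ikzf1, Runx1, Runx3, Bcl11a and Irf5. Of 40 surface and antigen presentation genes, 27 had a peak and 12 were broad. These were Itgax and Itgam (the integrin chains CD11c and CD11b), H2-Ab1, H2-Aa, H2-Eb1 and Cd74 (MHC class II and its invariant chain), Ciita (the transactivator of MHC class II), Csf2rb, Cd80, Sirpa, Cd68 and Tyrobp. Of 24 pan-leukocyte genes all had a peak and 6 were broad, namely Ptprc (CD45), Lcp1, Laptm5, Cd53, Inpp5d and Btk. The median length of the longest peak per gene was 4486 bp, 5502 bp and 5138 bp in these lists, against 2933 bp over all protein-coding genes with a peak.

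Lists outside the lineage gave few peaks at all. Of 85 genes listed for T cells, B cells, erythroid cells, fibroblasts, neurons, hepatocytes and embryonic stem cells, 6 had an NT peak and 0 were broad, too few to differ from the background of 5.40%. Of 20 housekeeping genes, which were chosen as a set used in every cell, all had a peak and 4 were broad (20%, all protein-coding genes with a peak 5.40%), among them Actb, Eef1a1 and Polr2a. So long domains were not confined to identity genes. Of 18 NF-κB genes, 17 had a peak and Nfkbid alone was broad (5.88%), which is at the background. Listed dendritic and myeloid genes without an NT peak at a TSS included Flt3, Zbtb46, Ccr7, Xcr1, Clec9a, Cd209a, Siglech, Ly75 and Itgae. Cebpb, Nfil3, Tcf4, Lyz2, Mrc1, Ccr2, Cx3cr1 and Clec4a2 also had none. Whether the line, the peak calling or the annotated starts account for this was not tested. Etv3 (6009 bp) and Lsp1 (6004 bp) fell just short of the limit.

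**Figure D2:**
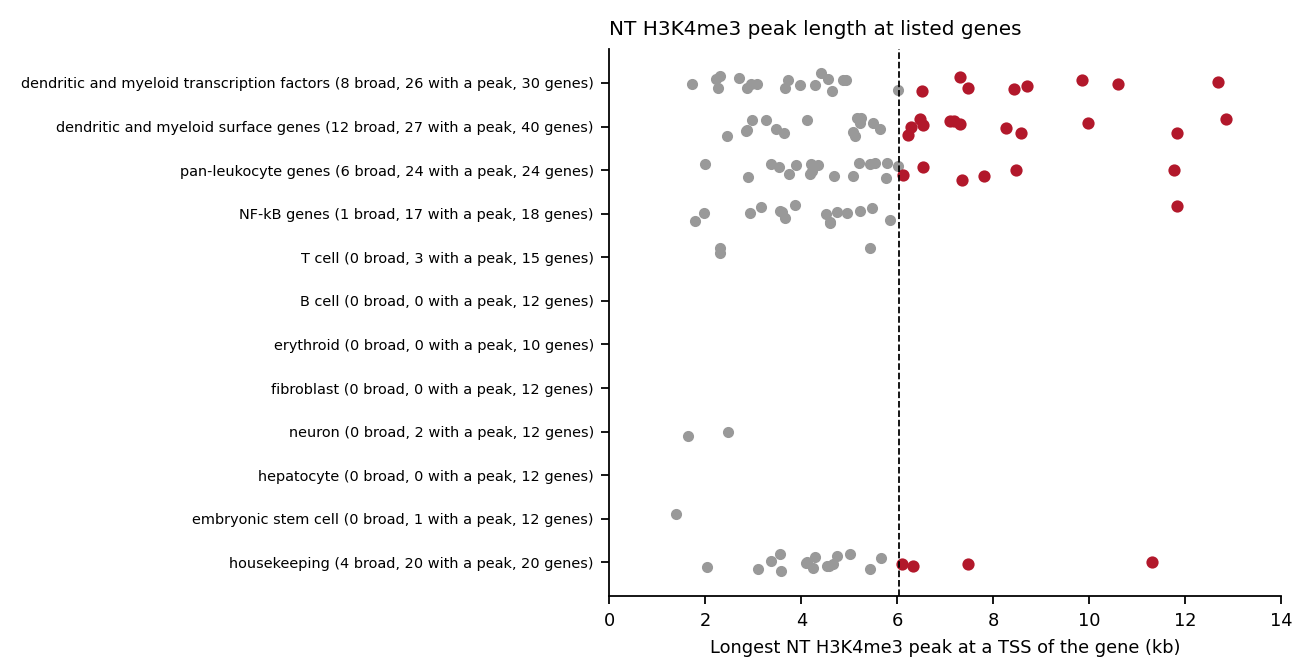
Length (kb) of the longest NT H3K4me3 peak at a TSS of each listed gene, 1 point per gene with a peak and 1 row per list, with genes in broad domains in red and the dashed line at the limit of 6.03 kb. The rows of dendritic, myeloid and leukocyte genes hold 8, 12 and 6 red points, the housekeeping row 4 and the rows of the 7 other cell types none.

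Some broad domains lay close to each other, among them those of listed MHC class II genes. Among broad domains, 37 neighbouring pairs were within 50 kb and 6 within 10 kb, with no such count for other NT peaks to set beside them. The domains of H2-Ab1, H2-Aa and H2-Eb1 followed one another on chromosome 17 with gaps of 13329 and 15059 bp. Csf2rb2 and Csf2rb, which encode β chains of cytokine receptors, were 18261 bp apart, and Il4ra and Il21r 42452 bp. The closest pair was Rhof and Setd1b, with 1189 bp between them.

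The lengths in the stimulated lists were then read at each domain as the sum of all peaks that overlapped it by at least 1 bp. A peak was found in the curdlan list for 499 of 500 domains and in the list of curdlan with FK506 for 500. The exception, inside Ccdc93, had 777 tags in NT and 489 with curdlan and FK506. Because the domains were chosen on their NT length, comparisons with NT are a description and their shares are not read against the background. The median length ratio of curdlan over NT was 1.01 over the domains and 1.04 over all NT peaks with a match. With curdlan 35 domains were at least 25% longer (7.01%, all peaks 14.8%) and 19 were at least 20% shorter (3.81%, all peaks 2.38%), while 357 were within 10% (71.5%, all peaks 58.1%). With FK506 as well the median ratio to NT was 1.00, 27 were longer (5.40%, all peaks 11.0%), 26 were shorter (5.20%, all peaks 3.49%) and 359 were within 10% (71.8%, all peaks 61.2%).

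The comparison of curdlan with FK506 against curdlan alone does not use the NT length. Its median ratio was 0.990 over 499 domains and 0.980 over all NT peaks with both matches. With FK506 414 domains were within 10% of their length with curdlan (83.0%, all peaks 68.2%, next 500 78.7%). By the same limits 8 were longer (1.60%, all peaks 3.32%) and 21 were shorter (4.21%, all peaks 7.61%). A given difference in base pairs is a smaller fraction of a longer peak, and the part of this in the higher share within 10% was not tested.

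**Figure D3:**
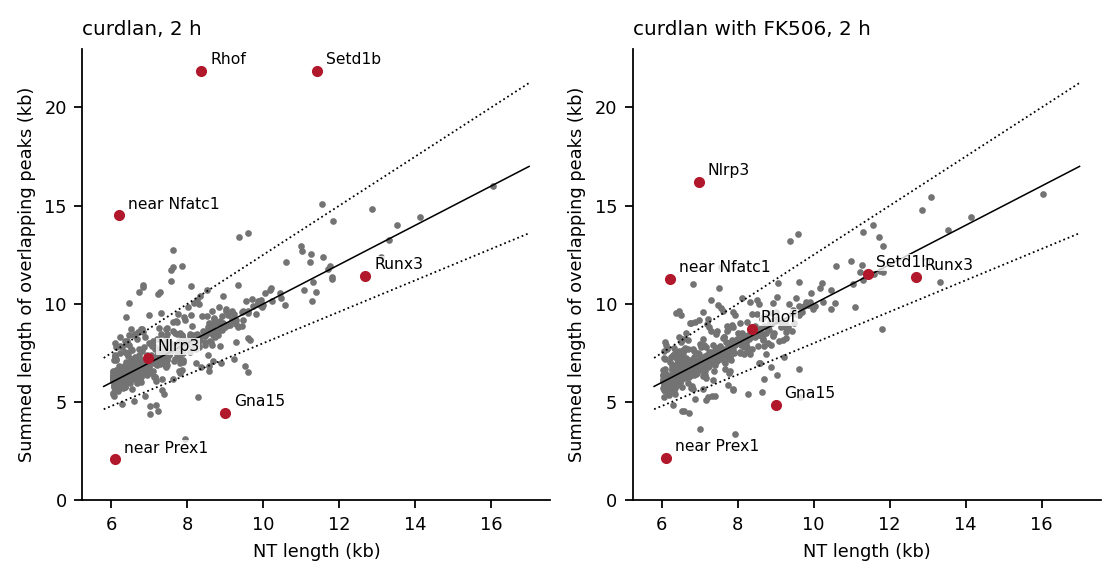
NT length of each broad domain (kb) against the summed length of overlapping peaks (kb) with curdlan (left) and with curdlan and FK506 (right), 1 point per domain, with solid lines at equal length, dotted lines at 25% longer and 20% shorter and named domains in red. Most points follow the solid line, Rhof and Setd1b stand at 21.9 kb on the left and near the line on the right, and Nlrp3 is near the line on the left and at 16.2 kb on the right.

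The largest differences in length came partly from joined peaks. Rhof, which encodes a small GTPase, and Setd1b had separate NT domains of 8.37 and 11.4 kb. With curdlan 1 peak of 21.9 kb covered both, and with FK506 as well the lengths were 8.75 and 11.5 kb. Each of these domains is therefore counted as lengthened by the same peak. The domain inside Nfatc1, the gene of another NFAT protein, measured 6.21 kb in resting cells, 14.5 kb with curdlan and 11.3 kb with FK506 as well. In total 16 broad domains shared a curdlan peak with another NT peak, and without such domains 4.76% were longer with curdlan. The share of all NT peaks under this rule was not computed.

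Nlrp3, the gene of an inflammasome sensor, differed in the other direction. Its domain measured 6.98 kb before stimulation, 7.26 kb after curdlan and 16.2 kb when FK506 was added. Sema4b, a semaphorin gene, had lengths of 7.03, 4.38 and 6.89 kb in the same order, and Gm17422 was 7.51, 7.48 and 10.8 kb. The domains that were shorter in both stimulated lists included Gna15, a G protein gene, with 8998 bp in NT against 4.46 and 4.85 kb. A domain near Prex1 had 6.11, 2.09 and 2.17 kb and one inside Vrk1 had 7.94, 3.11 and 3.37 kb, and these had the lowest NT densities of all, 86.6 and 110 tags per kb.

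Several domains were broken up in the stimulated lists. More than 1 curdlan peak overlapped 25 broad domains (5.01%) and 1.09% of the other NT peaks, and with FK506 as well the shares were 7.40% and 1.58%. The other peaks are much shorter and have less room for more than 1 peak, and the domains were chosen by NT length. These shares are therefore a description. Runx3 was 1 peak of 12.7 kb in NT and 2 peaks in each stimulated list, with sums of 11.4 and 11.4 kb. Among the 500 longest peaks of each list, those of curdlan overlapped 364 of the broad domains (72.8%) and those of curdlan with FK506 overlapped 374 (74.8%), and 331 (66.2%) were overlapped by both. The limit for the 500 longest was 6520 bp with curdlan and 6337 bp with FK506 as well. Genes outside the broad domains in NT and in the 500 longest peaks with curdlan included, by their longest peak at a TSS, Bcl6, a repressor (3718 bp in NT, 11302 bp with curdlan and 11349 bp with FK506 as well), Cd83, a maturation marker (2875, 7005 and 9207 bp), and Icam1, an adhesion molecule (5115, 9147 and 9322 bp). Of the 18 NF-κB genes, 7 were among the 500 longest with curdlan (all protein-coding genes with a peak, 5.30%) and 7 with FK506 as well (5.32%), against 1 in NT. The members were not all the same. Nfkb1 was among them with curdlan only (1981 bp in NT, 7029 bp with curdlan and 1947 bp with FK506 as well). Bcl3 was among them with FK506 only (4599, 5622 and 6802 bp).

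Tag density was compared after scaling to 1000000 ChIP tags and centring on the median of all NT peaks with a match. The median log2 difference of the broad domains between curdlan and NT was −0.004, with 11 domains at least 1.5-fold higher (2.20%, all peaks 3.34%) and 12 at least 1.5-fold lower (2.40%, all peaks 2.12%). Between curdlan with FK506 and NT it was 0.01, with 14 higher (2.80%, all peaks 2.86%) and 4 lower (0.800%, all peaks 1.71%). Between curdlan with FK506 and curdlan alone it was 0.02, with 5 higher (1.00%, all peaks 0.870%) and 1 lower (0.200%, all peaks 0.998%). Centring removed shifts of −0.20, −0.21 and −0.02 on the log2 scale. With the fold enrichment of the tallest peak in place of tags per kb, 7.82% of domains were higher with curdlan and 15.2% lower, so that these shares depend on the measure. The shares of all NT peaks by fold enrichment were not computed, so those of the domains are not read as a gain or loss.

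The domains with the largest density increase were those of Atf3, Zc3h12a, Rps6ka2, Per1 and Rhbdf2. Atf3, a stress-induced transcription factor gene (chr1:193003391-193010277), had 9.61 tags per kb per 1000000 ChIP tags in NT, 17.4 with curdlan and 16.04 with FK506 as well, a centred log2 difference of 1.05 for curdlan over NT. Zc3h12a, which encodes the RNase Regnase-1, had 12.1, 19.1 and 19.7. Both were thus high in the 2 stimulated libraries. Rps6ka2, a kinase gene, had 14.5, 22.8 and 21.2, Per1, a clock gene, had 12.6, 19.1 and 15.4, and Rhbdf2, whose product iRhom2 is needed for release of TNF, had 13.6, 19.7 and 18.9. In all 5 the value with FK506 also stood above NT. The 5 were chosen by their rise over this same single NT library, which favours a low NT value, so this is a description.

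The largest density decreases were at domains near Parp2 (overlapping Tep1), at Gpr146, near Lrp12, inside Plekha5 and at Tnfaip8l3. The domain near Parp2 had 16.8 scaled tags per kb in NT, 7.42 with curdlan and 7.21 with FK506 as well. Gpr146, an orphan receptor gene, had 24.5, 11.9 and 14.7, while its length went from 7.87 to 11.9 and 9.59 kb, and Tnfaip8l3 had 20.7, 11.3 and 13.9 with lengths of 7.62, 11.9 and 8.25 kb. At these genes a lower density thus went with a longer peak. The same held for Nlrp3 under FK506, where the tags were 4040 with curdlan and 4831 with FK506 as well, and the scaled density was 26.1 and 15.3 tags per kb. The other domains with the largest fall from curdlan to curdlan with FK506 were Runx2, Arhgap23, Chsy3 and Gpr35. Those with the largest rise were 2010109K11Rik, Cdh17, Wdfy2 and domains near Lrp12 and inside Csk, and of these 2010109K11Rik, Wdfy2 and Csk were also shorter with FK506 (length ratios 0.755, 0.643 and 0.620).

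The 26 domains of identity genes had a median length ratio of 1.05 and a median log2 density difference of 0.02 between curdlan and NT. Over all broad domains these medians were 1.01 and −0.004. Runx1, whose start sites lay in a pair of broad domains of 8697 and 6326 bp, is counted here by the longer. Of the 26, 2 were at least 25% longer with curdlan, Irf4 and H2-Eb1 (all broad domains 7.01%, all peaks 14.8%). At least 20% shorter was 1, Itgam (all broad domains 3.81%, all peaks 2.38%). These counts are too few to set identity genes apart from the other domains. Irf4, a transcription factor gene of activated dendritic cells, had lengths of 6.52 kb in NT, 8.74 kb after curdlan and 9.42 kb after both. H2-Eb1 was 6.46, 8.43 and 8.32 kb, and Itgam was 7.17, 4.84 and 5.09 kb. None passed 1.5-fold in density between curdlan and NT, where 3.34% of all peaks were higher and 2.12% lower. The highest centred log2 difference was 0.46 at Cd80, with 21.9, 26.2 and 27.2 scaled tags per kb, and the lowest was −0.49 at Inpp5d, a lipid phosphatase gene, with 18.1, 11.3 and 12.9. Ciita was at −0.47 and Id2 at −0.45, so a difference of this size was seen in both directions.

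**Figure D4:**
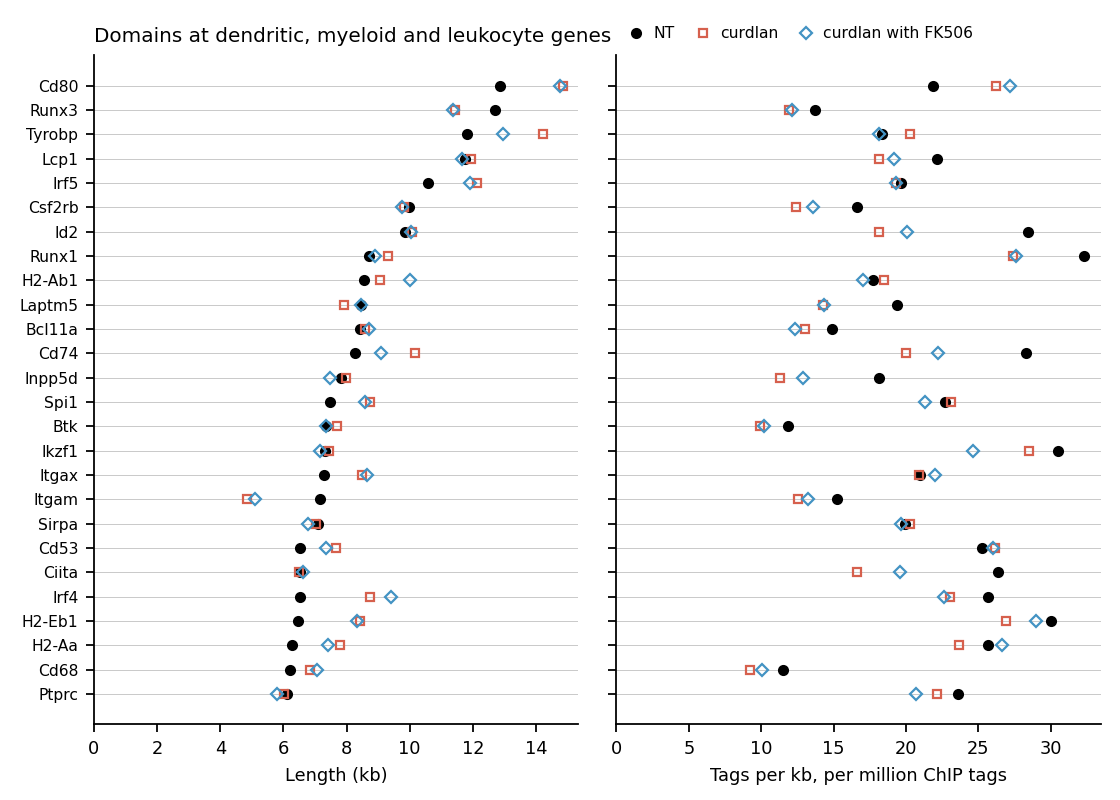
Summed peak length (kb, left) and tags per kb per 1000000 ChIP tags (right) at the 26 broad domains of dendritic, myeloid and leukocyte genes, 1 row per gene, in NT (black circles), curdlan (red squares) and curdlan with FK506 (blue diamonds), 1 library each. Most symbols of a row lie close together, Irf4 and H2-Eb1 are longer and Itgam is shorter in both stimulated lists.

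NFATc2 binding after 30 min of curdlan was read against the NT domains, so the mark and the factor come from different cells and times. A summit lay in 204 of the 500 broad domains (40.8%, 36.6 to 45.2), against 13.5% of all NT peaks, 31.6% of the 500 next longest (27.7 to 35.8) and 12.6% of the other peaks (12.1 to 13.1). A longer region has more room for a summit. Per Mb of peak, broad domains held 65.8 summits (250 in all, exact Poisson 95% interval 57.9 to 74.5), the next 500 held 66.3 (57.0 to 76.6) and the other peaks 52.0 (49.8 to 54.4). The density of summits in broad domains was thus above that of the other peaks as a whole and the same as in the next longest peaks within counting error. The intervals of broad domains and other peaks overlapped with the 250 longest peaks (60.4 per Mb, 50.5 to 71.7, against 52.9, 50.7 to 55.2) and at an NFATc2 p-value of 1e-10 or less (33.7, 28.1 to 40.0, against 26.7, 25.1 to 28.4). Summits more than 1 kb from every TSS numbered 40.0 per Mb of broad domain (33.9 to 46.9), 32.8 per Mb of the next 500 and 29.7 per Mb of the other peaks (28.0 to 31.4).

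**Figure D5:**
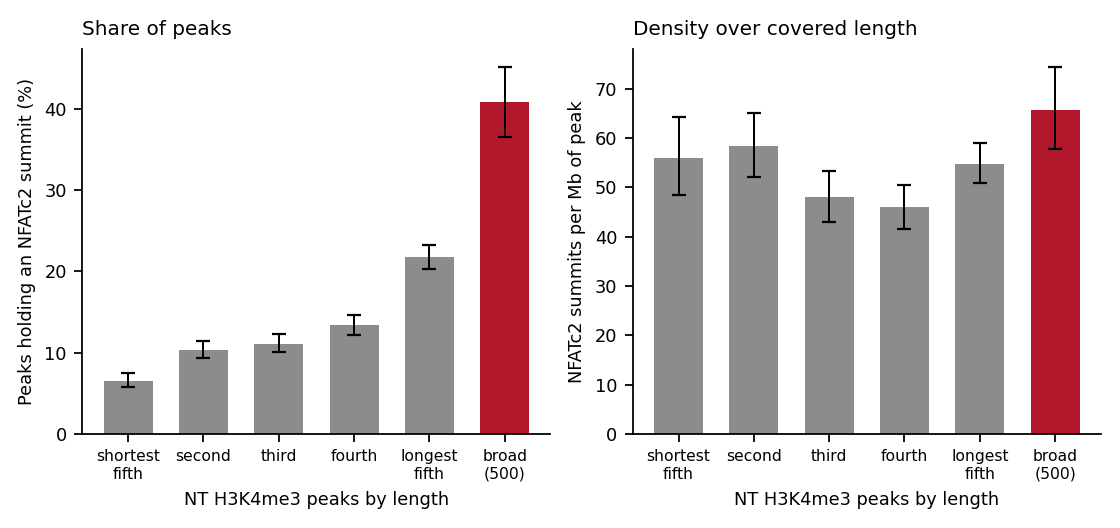
Share of NT peaks with an NFATc2 summit (%, left, bars with Wilson 95% intervals) and NFATc2 summits per Mb of peak (right, bars with exact Poisson 95% intervals) for the 15299 other peaks in 5 classes of equal number by length (grey) and for the 500 broad domains (red). The share climbs from 6.54% to 40.8%, while the density per Mb stays between 45.9 and 65.8.

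In domains of 1 gene, summits were denser per Mb upstream of the start than downstream. The upstream parts were shorter (median 1490 against 4946 bp), and side was not separated from distance to the start. Upstream there were 58 summits (106 per Mb, 80.7 to 137) and downstream 84 (58.6 per Mb, 46.7 to 72.5), with 20 between the first and the last start. In the 500 next longest peaks the values were close to these, 92.3 (66.2 to 125) upstream and 54.95 (41.8 to 70.9) downstream. The other peaks as a whole showed the same order at lower values, 55.7 and 32.0 per Mb. The summits in broad domains had a median of 95.5 NFATc2 tags, against 97.0 in the next 500 and 78.0 in the other peaks. The core GGAAAA lay within 100 bp of 46.0% of summits in broad domains (39.9 to 52.2) and of 46.0% in the other peaks, so the motif share did not set them apart.

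More than 1 summit lay in 45 broad domains (9%), in 4.40% of the 500 next longest peaks and in 0.412% of the much shorter other peaks. P2ry13, the gene of an ADP receptor, had 3 summits, and its domain went from 6.35 kb in NT to 5.78 kb after curdlan and 5.82 kb after both. Rhof, Dpysl2/Gm5464, Ptpn22 (a phosphatase gene of lymphocyte signalling) and Rin3 had 2 each, and their strongest summits held 529, 416, 370 and 298 tags. Of the identity domains, 13 of 26 held a summit (50%), near the 40.8% of all broad domains, with 2 each at Runx3, Tyrobp, Irf5, Btk and Cd53.

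Domains with and without a summit were then set side by side. The median log2 density difference of curdlan over NT was 0.03 in the 204 domains with a summit and −0.03 in 295 without. At least 25% longer were 19 (9.31%) and 16 (5.42%), against 16.9% and 14.5% of all NT peaks with and without a summit. For curdlan with FK506 over curdlan the medians were 0.001 and 0.033. Here 3 (1.5%) and 5 (1.7%) domains were longer, against 2.9% and 3.4% of all NT peaks with and without a summit. The differences between medians are small beside the spread between domains, whose quartiles with a summit were −0.18 and 0.20 for curdlan over NT.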

How the data were processed

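H3K4me3 and NFATc2-V5 ChIP-seq was done by the authors in D1 cells, with 1 ChIP and 1 input library per condition. Reads were mapped to mm9 with Bowtie, per the labels, and peaks were called by the authors per library against its own input with MACS (1.4.2 in the file headers, p-value limit 1e-05, at most 1 tag per position). The deposited tag counts per peak are not normalized. The deposited fold enrichment is a ratio to the local background, the deposited score is log10 of the p-value times −10, and the deposited FDR is in percent.

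Overlaps of 1 bp or more joined peaks between lists, and their lengths and tags were summed. Tags per kb were divided by the header total of ChIP tags and scaled to 1000000, and log2 ratios were centred on all NT peaks with a match. Calls were 25% longer or 20% shorter for length and 1.5-fold for tags per kb. TSSs came from the GENCODE M1 annotation of NCBI build 37, and Spi1 was matched by synonym. Intervals are Wilson or exact Poisson at 95% and cover counting error only. The members and the gene lists were chosen with earlier results of these data known. Domains were named if they were among the 10 longest, held an identity gene, held most NFATc2 summits, changed most or lay at the limit. Tnrc18 and the others named for high or low density, Ccdc93, the neighbouring pairs, the miRNA genes and the genes that were long only in a stimulated list were chosen after their values were seen. Functions were tested on simulated data with planted answers. Alternatives were other numbers of peaks, joining of peaks within 1 kb, other overlap and TSS rules, FDR of 5% or less, fold enrichment and a stricter NFATc2 threshold. Scripts ran in Python 3.11.15 with scipy 1.17.1, pandas 2.3.3, numpy 2.4.6 and matplotlib 3.10.9.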

Additional observations from a re-analysis of the deposited data

How the results depend on the processing

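No paired analysis was possible because each condition had 1 library. Over 28 values and 123 alternatives, 80 stayed within the interval of the reported value (for counts, within 1.5 times) and 43 moved outside it. NFATc2 summits per Mb were higher in broad domains than in other peaks under every alternative run, but the intervals overlapped with the 250 longest peaks and at the p-value limit of 1e-10. The cause was not tested where none is given. With the 250 and 1000 longest peaks in place of 500, which changes the number of peaks, 345 and 1308 genes had a TSS inside. The identity genes numbered 17 with 250, and with 1000 the NF-κB genes numbered 4 and genes of other cell types 1. With peaks within 1 kb joined 2 NF-κB genes were inside. Among lengths, the longest overlapping peak alone gave 7.62% (curdlan) and 11.2% (with FK506) of domains shorter than in NT, and 3.41% longer and 7.42% shorter with FK506 than with curdlan. Joined peaks gave 7% and 9.80% shorter than in NT and 6.40% shorter with FK506 than with curdlan. Without domains whose overlapping peaks were shared with another NT peak, an alternative chosen after seeing the data, 4.76% were longer with curdlan than in NT and 2.72% shorter with FK506 than with curdlan. For density, centred fold enrichment gave 7.82% higher and 15.2% lower (curdlan over NT, median log2 −0.090), 8.00% and 13.0% (with FK506 over NT, −0.069) and 11.6% and 7.82% (with FK506 over curdlan, −0.0037). Without centring the shares were 0.802% and 7.01% (−0.20) and 0.400% and 6.00% (−0.20), and the median of the last comparison was 0.0053. The shares of all NT peaks under these alternatives of length and density were not computed. For NFATc2, the p-value limit of 1e-10 gave 23.6% of broad domains with a summit and 33.7 summits per Mb, against 6.56% and 26.7 in other peaks. Overlap of the NFATc2 peak gave 13.4% and 55.9 per Mb in other peaks. With 1000 peaks the shares were 36.2% and 12.0%. Summits over 1 kb from every TSS gave 27.2% and 40.0 per Mb, against 7.28% and 29.7 in other peaks as a whole. With 1 library per condition, depth (16662316 to 21289349 H3K4me3 tags) and condition cannot be told apart in length or density.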
